A study of Mus musculus with 4 samples.

Results

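Smooth muscle contractile genes were taken as 10 genes, Acta2, Actg2, Myh11, Mylk, Tagln, Cnn1, Smtn, Lmod1, Des and Myocd, and as every probe set annotated with exactly 1 of these symbols. That gave 16 probe sets, out of 20380 probe sets with 1 symbol that read 12393 genes. They were measured in whole mouse lung at embryonic day 18 on 4 Affymetrix arrays, in 2 wild-type lungs and 2 lungs carrying an Sftpc-Nmyc transgene. The transgene encodes mouse Nmyc1 (Mycn) fused to EGFP under a 3.7 kb promoter and enhancer of human SFTPC, a promoter active in lung epithelium. Transgenic embryos came from pronuclear injection into F2 eggs of C57BL/6J and DBA/2J origin, so they were founders, each with its own insertion, and the design text gives E18.5 for them. No strain or finer stage is given for the wild-type lungs. The duplicates were biological replicates according to the design text.

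Smooth muscle wraps the airways and the vessels of the lung, and part of these genes is also active in the alveolar myofibroblasts and pericytes. Contraction starts when calcium and calmodulin activate myosin light chain kinase (Mylk), which phosphorylates the light chain and lets smooth muscle myosin (Myh11) pull on filaments of smooth muscle actin (Acta2, Actg2). Transcription of many of these genes runs through serum response factor (SRF), which binds CArG boxes together with the coactivator myocardin (Myocd) or its relatives.

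Each array gave 22690 signals with a median between 65.45 and 70.8. Mycn was read at 34.7 and 32.1 in wild type and at 455.2 and 356 in the transgenic lungs by probe set 1425922_a_at, while probe set 1417155_at fell from 78.7 and 63.5 to 25.1 and 27.2 (limma adjusted p = 0.015) and 1425923_at did not pass (0.33). Xist stood at 1707.8 and 1506.1 in wild type and at 59.3 and 63.9 in the transgenic lungs, so the sex of the embryos and the transgene cannot be told apart. Signals are relative to the other RNA on the same array. In whole lung, fewer smooth muscle cells, less RNA per cell and more RNA from other cells cannot be told apart either.

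The brighter contractile genes were lower in the Sftpc-Nmyc lungs. Of the 10 genes, 7 passed a filter that left out the dimmest 30% of genes, and 4 of these 7 fell while 0 rose (limma adjusted p under 0.05, with 0 higher also at an unadjusted p under 0.05). Mylk, Smtn, Tagln and Acta2 were the genes that fell, to between 1.58-fold and 2.14-fold lower. Without wild-type replicate 2 only Mylk and Smtn kept their call, and likewise without transgenic replicate 1. With all 4 arrays, 15.7% of all 8675 genes tested were called lower and 30.4% were called in either direction. The median log2 fold change of the 7 genes was -0.82, against -0.02 over all genes tested. Groups did not overlap, with both transgenic arrays below both wild-type arrays, for 5 of the 7, against 34.8% of all genes. The 4 that fell were also the 4 whose signals lay above 73.4, the highest of 27 Bacillus control probe sets, on all arrays. These 7 genes are not independent of each other, since they share their cells and arrays. Cnn1, Lmod1 and Myocd did not pass the filter.

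**Figure D1:**
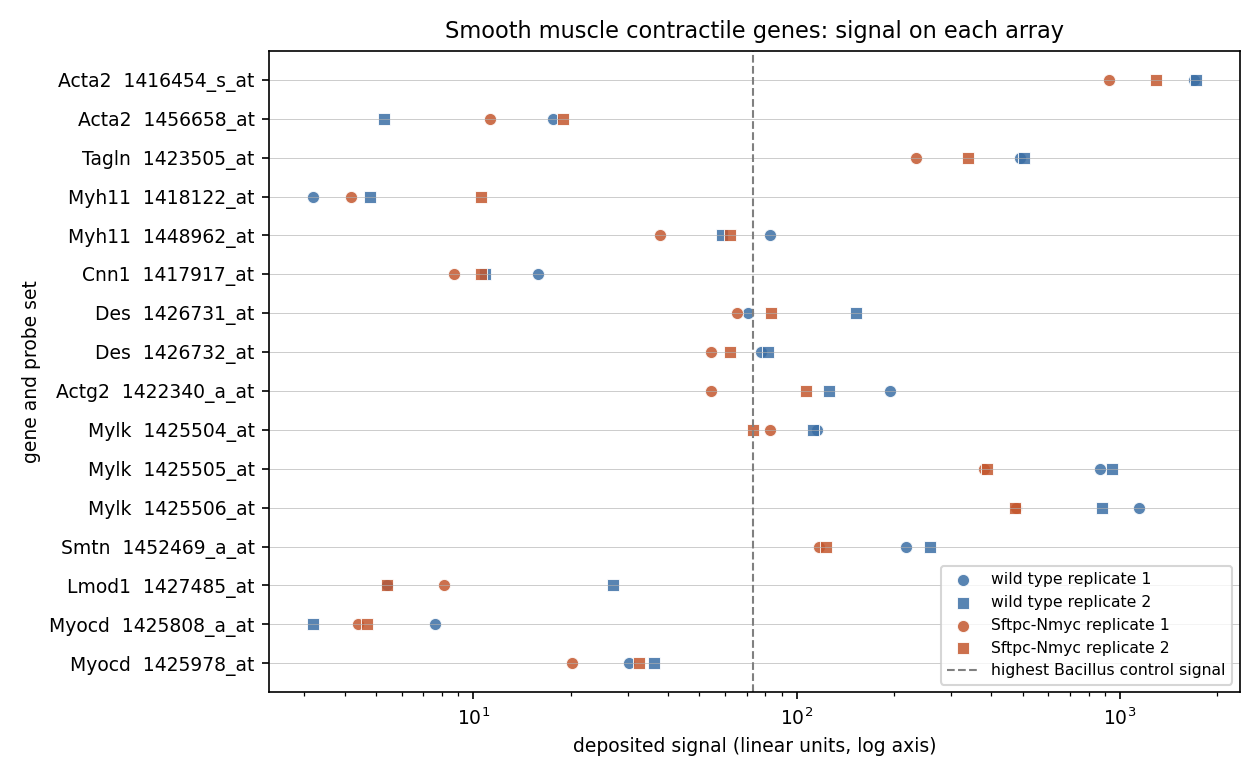
Deposited signal of each of the 16 probe sets (vertical axis) on a log axis, with 1 point per array, wild type in blue and Sftpc-Nmyc in orange, and a dashed line at 73.4, the highest signal of 27 Bacillus control probe sets. The Sftpc-Nmyc points lie left of the wild-type points for Acta2 1416454_s_at, Tagln, Actg2, Smtn, Des 1426732_at and the 3 probe sets of Mylk. They also do for Cnn1, where the nearest points are 10.6 and 10.9. Cnn1, Lmod1 and Myocd stay left of the dashed line on all arrays.

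Acta2 encodes the alpha actin of vascular and airway smooth muscle. Its probe set 1416454_s_at read 1693.3 and 1713.6 in wild type and 921.7 and 1294.5 in the transgenic lungs. Both transgenic lungs were below both wild-type lungs, and they lay much farther from each other than the wild-type pair did. After quantile normalization the means were 1716 ± 16.3 and 1098 ± 262 (SD, n = 2). The log2 fold change was -0.66 ± 0.16 (SE; limma adjusted p = 0.019), on a log2(signal + 5) scale that understates changes of dim genes. That call was lost when wild-type replicate 1 was left out (-0.66, limma adjusted p = 0.105), and likewise for wild-type replicate 2 (-0.66, 0.112) and transgenic replicate 1 (-0.43, 0.0503). It also ended with no filter on dim genes (limma adjusted p = 0.0562) and with no trend in the variance model (0.0616). The second Acta2 probe set, 1456658_at, was dim in all lungs, with signals of 17.7 and 5.3 in wild type and 11.3 and 19.0 in the transgenic lungs. With both probe sets averaged, Acta2 stood at -0.08 (limma adjusted p = 0.816). The suffix of 1416454_s_at is the manufacturer's mark for probes that can match transcripts of more than 1 gene, so related actins may share this signal.

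Actg2 encodes the gamma actin of visceral smooth muscle. It read 194.1 and 125.9 in wild type and 54.4 and 107.0 in the transgenic lungs. The groups did not overlap, but the spread inside each was wide. The log2 fold change of -0.95 ± 0.31 (SE, 95% interval -1.67 to -0.23) did not pass (limma adjusted p = 0.053). It was called under 6 of 14 alternative settings. With the values as deposited the limma adjusted p was 0.0495, and scaled to a common 75th percentile it was 0.0472. With no filter on dim genes it was 0.131, and with no trend in the variance model 0.0859. The log2 fold change was -1.37 without transgenic replicate 2 and -0.52 without transgenic replicate 1. The reading of 54.4 in transgenic replicate 1, on which the larger change rests, was below 73.4.

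Other actins of the same family were read beside them. Actc1, the actin of heart muscle, read 1091.5 and 589.2 in wild type and 103.5 and 237.7 in the transgenic lungs, a log2 change of -2.33 ± 0.40 (SE; limma adjusted p = 0.0043). Actb and Actg1, the cytoplasmic actins of all cells, fell by less, at -0.36 ± 0.08 and -0.39 ± 0.09 (limma adjusted p = 0.015 and 0.018). Acta1, the actin of skeletal muscle, was too dim to test, at 3.4 to 25.1.

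RefSeq promoter windows (GRCm38.p6, 250 bases before to 50 after the listed start) were matched for 6 of the 10 genes, namely Acta2, Cnn1, Des, Mylk, Smtn and Lmod1. They were searched upstream of the start for CArG boxes, the SRF binding motif, whose pattern reads the same on both strands. The strict form has only A or T between its flanks, and the relaxed form allows 1 G or C there. Among all 32851 windows, 1.47% held a strict box and 8.59% a strict or relaxed one. Of the 6 genes, 0 held a strict box and 1, Acta2, held relaxed boxes, which lay 84 to 75 and 34 to 25 bases upstream and did not overlap. The stretches below show those boxes in capitals. Beside them stand the related actins Actc1 and Actg1, the myosin light chain gene Myl9 and Srf itself, where the same search found boxes. Mylk and Smtn, which had the largest falls among the genes called, are also shown and held none in this window. Other genes searched are not shown. Among them Vcl and Cnn2 held a strict box, and Mrtfa held a relaxed one in 1 of its windows. Tpm1, Tpm2, Cald1, Csrp1 and Cnn3 held none. All stretches are printed 5′ to 3′ on the gene's strand.
Acta2, chr19:34255374-34255493, minus strand: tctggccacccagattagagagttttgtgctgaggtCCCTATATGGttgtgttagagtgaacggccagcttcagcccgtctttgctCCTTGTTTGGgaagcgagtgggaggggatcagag
Actc1, chr2:114052906-114053055, minus strand: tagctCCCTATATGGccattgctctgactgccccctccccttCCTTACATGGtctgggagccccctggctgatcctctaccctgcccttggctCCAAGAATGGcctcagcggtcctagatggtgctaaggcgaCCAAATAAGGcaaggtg
Actg1, chr11:120348556-120348615, minus strand: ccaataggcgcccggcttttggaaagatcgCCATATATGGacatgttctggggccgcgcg
Myl9, chr2:156775284-156775383, plus strand: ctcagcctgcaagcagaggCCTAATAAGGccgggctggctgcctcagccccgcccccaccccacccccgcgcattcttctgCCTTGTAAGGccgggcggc
Srf, chr17:46556203-46556272, minus strand: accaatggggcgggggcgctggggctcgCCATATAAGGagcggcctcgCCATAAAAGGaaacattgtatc
Mylk, chr16:34784830-34784949, plus strand: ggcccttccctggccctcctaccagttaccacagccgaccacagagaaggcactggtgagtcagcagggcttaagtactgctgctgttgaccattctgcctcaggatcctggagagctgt
Smtn, chr11:3539293-3539412, minus strand: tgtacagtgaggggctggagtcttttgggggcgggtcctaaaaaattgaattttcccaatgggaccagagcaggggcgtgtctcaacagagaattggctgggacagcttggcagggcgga
Acta2 and Actc1 share the upstream box letter for letter (CCCTATATGG), and Actc1 holds 4 boxes in the stretch shown, Acta2, Myl9 and Srf 2 each and Actg1 1. A match is a run of letters and not a measured binding site, and the absence of a match in Mylk and Smtn concerns this window alone.

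Mylk, the kinase that switches on smooth muscle myosin, had the largest fall of the 7 genes. Its brightest probe set, 1425506_at, read 1147.3 and 878.4 in wild type and 477.2 and 475 in the transgenic lungs. Both transgenic lungs were near the same level, at 46.5% and 46.9% of the wild-type mean after normalization. On the log2 scale this was a change of -1.10 ± 0.16 (SE; limma adjusted p = 0.0025), 2.14-fold lower. Probe set 1425505_at read 866.3 and 947.6 in wild type and 378.9 and 388.2 in the transgenic lungs, which made -1.24 ± 0.13 on the log2 scale (limma adjusted p = 0.00099, adjusted over all probe sets). The third, 1425504_at, read 115.7 and 112.5 in wild type and 82.9 and 73.3 in the transgenic lungs. It moved the same way without passing, at -0.49 ± 0.19 (limma adjusted p = 0.092). Mylk makes several transcripts from different starts, and which of them each probe set reads was not determined here. The call of Mylk held under all 14 alternatives tried, with adjusted p from 0.002 to 0.023.

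Myh11, the heavy chain of smooth muscle myosin, gave no call. Probe set 1448962_at read 82.6 and 58.9 in wild type and 37.9 and 62.1 in the transgenic lungs, and the groups overlapped. Its log2 fold change was -0.41 ± 0.29 (SE; limma adjusted p = 0.32), with a 95% interval of -1.08 to 0.26 that includes both no change and a fall as large as that of Smtn. Only 1 of its 4 readings was above 73.4, the highest Bacillus control signal. The other Myh11 probe set, 1418122_at, lay between 3.2 and 10.6 and was too dim to test. The nonmuscle heavy chains differed: Myh14 fell by 0.78 ± 0.21 on the log2 scale (SE; limma adjusted p = 0.027), while Myh9 stood at 0.04 ± 0.12 without passing (0.81).

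Tagln, also called SM22 alpha, binds actin filaments and is an early marker of smooth muscle. It read 491.9 and 503.9 in wild type and 233.5 and 339.6 in the transgenic lungs, so the wild-type pair nearly coincided and both transgenic lungs were lower. Its change was -0.82 ± 0.19 on the log2 scale (SE; limma adjusted p = 0.015), 1.77-fold lower. The call needed each of 3 arrays: leaving out wild-type replicate 1 gave an adjusted p of 0.0844 at -0.83, wild-type replicate 2 gave 0.0926 at -0.82, and transgenic replicate 1 gave 0.0579 at -0.55. Its widely expressed relative Tagln2 stood at -0.07 ± 0.13 without passing (limma adjusted p = 0.72).

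Smtn, smoothelin, is an actin-associated protein of contractile smooth muscle. It read 217.5 and 259.2 in wild type and 117.2 and 123.6 in the transgenic lungs, with the transgenic readings close together, at 51.2% and 53.0% of the wild-type mean after normalization. The log2 fold change was -0.94 ± 0.17 (SE; limma adjusted p = 0.0051), 1.92-fold lower, and Smtn was called under all 14 alternatives, with adjusted p from 0.0036 to 0.043.

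Cnn1, calponin 1, which restrains the myosin ATPase, read only 15.9 and 10.9 in wild type and 8.7 and 10.6 in the transgenic lungs. Lmod1, leiomodin 1, which nucleates actin filaments in smooth muscle, read 5.4 and 27.0 in wild type and 8.1 and 5.4 in the transgenic lungs. Neither was tested, and readings this far below 73.4 give no direction. The more widely expressed calponins were bright and fell. Cnn2 read 2613.6 and 3010.6 in wild type and 1580.6 and 1495.7 in the transgenic lungs, for a log2 change of -0.91 ± 0.11 (SE; limma adjusted p = 0.0012), and Cnn3 stood at -0.81 ± 0.18 (0.012).

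Des, desmin, is the intermediate filament protein of smooth and striated muscle. Probe set 1426731_at read 70.5 and 152.2 in wild type and 65.2 and 83.4 in the transgenic lungs, so wild-type replicate 1 lay between the transgenic readings and replicate 2 stood far above them. The log2 fold change of -0.41 ± 0.35 (SE, 95% interval -1.21 to 0.39) did not pass (limma adjusted p = 0.40). A single array set its size: without wild-type replicate 2 it was 0.15 (limma adjusted p = 0.719), and without wild-type replicate 1 it was -0.98 (0.0433). The other probe set, 1426732_at, read 77.5 and 81.7 in wild type and 54.5 and 62.4 in the transgenic lungs, and its log2 change of -0.35 ± 0.21 did not pass either (limma adjusted p = 0.26, over all probe sets). Vim, vimentin, the intermediate filament of mesenchymal cells, fell by 0.82 ± 0.12 on the log2 scale (SE; limma adjusted p = 0.0025).

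Myocd, the coactivator of SRF, was below 73.4 in all lungs. Its brighter probe set, 1425978_at, read 30.3 and 36.2 in wild type and 20.2 and 32.5 in the transgenic lungs. The groups overlapped, and at -0.20 ± 0.36 (SE, 95% interval -1.02 to 0.63) it did not pass over all probe sets (limma adjusted p = 0.73). As a gene it lay below the filter. The other Myocd probe set, 1425808_a_at, lay between 3.2 and 7.6.

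**Figure D2:**
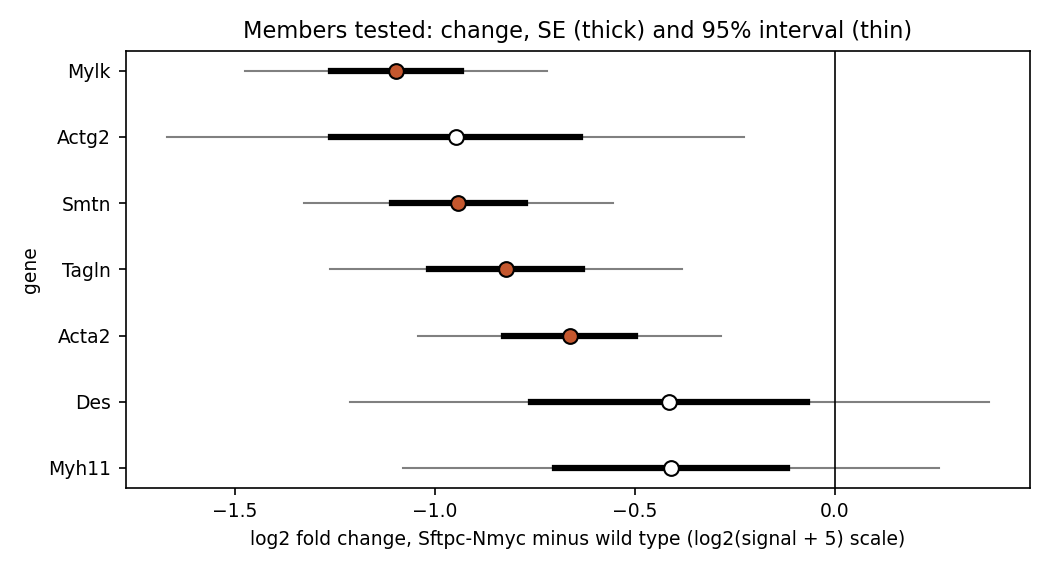
Log2 fold change of the 7 genes tested, Sftpc-Nmyc minus wild type, with its standard error as a thick bar and its 95% interval as a thin line; filled points passed at a limma adjusted p under 0.05. Points run from -1.10 (Mylk) to -0.41 (Myh11), and the intervals of Des and Myh11 include 0.

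Of the 16 probe sets, 11 passed the filter when every probe set was tested on its own. Of these, 5 were called lower, from Acta2, Tagln, Smtn and Mylk, and 0 higher (limma adjusted p under 0.05, with 0 higher also unadjusted), where 12.9% of all 14266 probe sets were called lower and 26.4% in either direction. Groups did not overlap, with the transgenic lungs lower, for 8 of the 11, against 33.2% of all probe sets. All 11 had a negative log2 fold change, as did 13 of the 16 before the filter. Acta2 1456658_at, Myh11 1418122_at and Myocd 1425808_a_at had a positive one, at 0.49, 0.50 and 0.03, and were too dim to test. Counted by gene, all 7 tested had a negative change, as did 4471 of all 8675 genes tested. The changes of the 7 genes were then compared in 21 pairs, by the difference of the 2 genes within each array. The largest difference, 0.69, was between Myh11 and Mylk. For that pair the within-array difference, set against its wild-type mean, was 0.41 and 0.97 in the transgenic lungs. For Acta2 and Tagln it was -0.01 and 0.01 in wild type and 0.18 and 0.14 in the transgenic lungs, so Tagln stood lower relative to Acta2 in both. With 2 lungs per group an exact two-sided permutation test cannot go below p = 0.333, so it decides nothing about these pairs, and their differences are given as values alone.

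Genes that work with the contractile filament were lower in part. Of 30 genes listed as contractile partners, 23 were measured and 22 tested. Of these, 10 fell and 0 rose (limma adjusted p under 0.05, and 0 higher also unadjusted), with a median log2 fold change of -0.56. The share called lower over all genes tested was 15.7%. Cald1, caldesmon, which blocks myosin from actin, read 813.8 and 805 in wild type and 343.6 and 356.8 in the transgenic lungs, for a log2 change of -1.21 ± 0.13 (SE; limma adjusted p = 0.00076). Myl9, the regulatory light chain that Mylk phosphorylates, read 731 and 906.5 in wild type and 338.3 and 431.2 in the transgenic lungs, at -1.08 ± 0.17 (0.003). Csrp1, a LIM protein of smooth muscle, fell by 1.03 ± 0.13 on the log2 scale (limma adjusted p = 0.0013). Tns1, tensin 1, which ties actin to integrins, fell by 1.24 ± 0.14 (0.00096), and Rhoa, the GTPase whose kinase inhibits myosin phosphatase, fell by 0.96 ± 0.11 (0.00095). Tpm1, a tropomyosin, fell by 0.73 ± 0.21 (limma adjusted p = 0.032), and Tpm2, the tropomyosin of slow and smooth muscle, did not pass at -0.44 ± 0.20 (0.14). Rock1 and Ppp1cb, a kinase and a phosphatase subunit that set light chain phosphorylation in many cell types, stood at 0.03 ± 0.17 and 0.05 ± 0.19 without passing. Without wild-type replicate 2 the count lower was 6 of 22.

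Among 27 family relatives of the 10 genes, 22 were measured and 16 tested. Of these, 9 fell and 0 rose (limma adjusted p under 0.05, and 0 higher also unadjusted), with a median log2 fold change of -0.76. The share called lower over all genes tested was 15.7%. Tmod1, 1 of the 9, had a transgenic mean below the filter and entered the test through the wild-type lungs alone.

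Regulators of the SRF and myocardin programme split. All 36 listed were measured and 32 tested, of which 13 fell and 1 rose, with a median log2 fold change of -0.23. Over all genes tested, 15.7% were called lower and 14.7% higher. The list was not split into activators and repressors of the programme, so its counts give no direction for the programme. Srf itself read 155.2 and 170 in wild type and 175.8 and 159.9 in the transgenic lungs, at 0.05 ± 0.16 (SE; limma adjusted p = 0.84). The coactivators related to Myocd, Mrtfa and Mrtfb, stood at 0.10 ± 0.14 and 0.15 ± 0.26 and did not pass (0.63 and 0.69). The 95% intervals of Srf and Mrtfa, -0.32 to 0.43 and -0.23 to 0.43, both included 0. Tgfb1, a growth factor that induces contractile genes in mesenchyme, read 400.3 and 354.3 in wild type and 114.3 and 99.6 in the transgenic lungs, for a log2 change of -1.76 ± 0.17 (SE; limma adjusted p = 0.00051). Its receptor Tgfbr2 fell by 1.04 ± 0.15 (0.0022). Foxf1 and Tbx4, transcription factors of lung mesenchyme, had log2 changes of -1.12 ± 0.15 and -1.25 ± 0.17 (both 0.0018). Klf5, a factor of epithelium and of proliferating smooth muscle, was the 1 that rose, at 0.47 ± 0.13 (0.026), and Csrp2 stood at 0.37 ± 0.14 without passing (0.073). Without wild-type replicate 2 the count lower was 8 of 32.

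Ion channel and agonist genes of smooth muscle fell in part. Of 28 listed, 21 were measured and 16 tested. Of these, 9 fell and 0 rose (limma adjusted p under 0.05, and 0 higher also unadjusted), with a median log2 fold change of -0.83. The share called lower over all genes tested was 15.7%. Gucy1a1 and Gucy1b1, the subunits of the nitric oxide receptor that relaxes smooth muscle, had log2 changes of -1.24 ± 0.14 and -1.56 ± 0.19 (SE; limma adjusted p = 0.00089 and 0.0012). Cav1, the main caveolar protein, fell by 1.31 ± 0.15 (0.001), and Kcnj8, a potassium channel subunit of mural cells, fell by 1.37 ± 0.20 (0.0022). Endothelium and other lung cells also express Cav1. Ryr2, 1 of the 9 that fell, had a transgenic mean below the filter and entered the test through the wild-type lungs alone. Kcnmb1, the smooth muscle subunit of the large calcium-activated potassium channel, named after its values were seen, read 49.8 and 60.5 in wild type and 49.1 and 40.6 in the transgenic lungs and did not pass at -0.18 ± 0.27 (0.66).

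**Figure D3:**
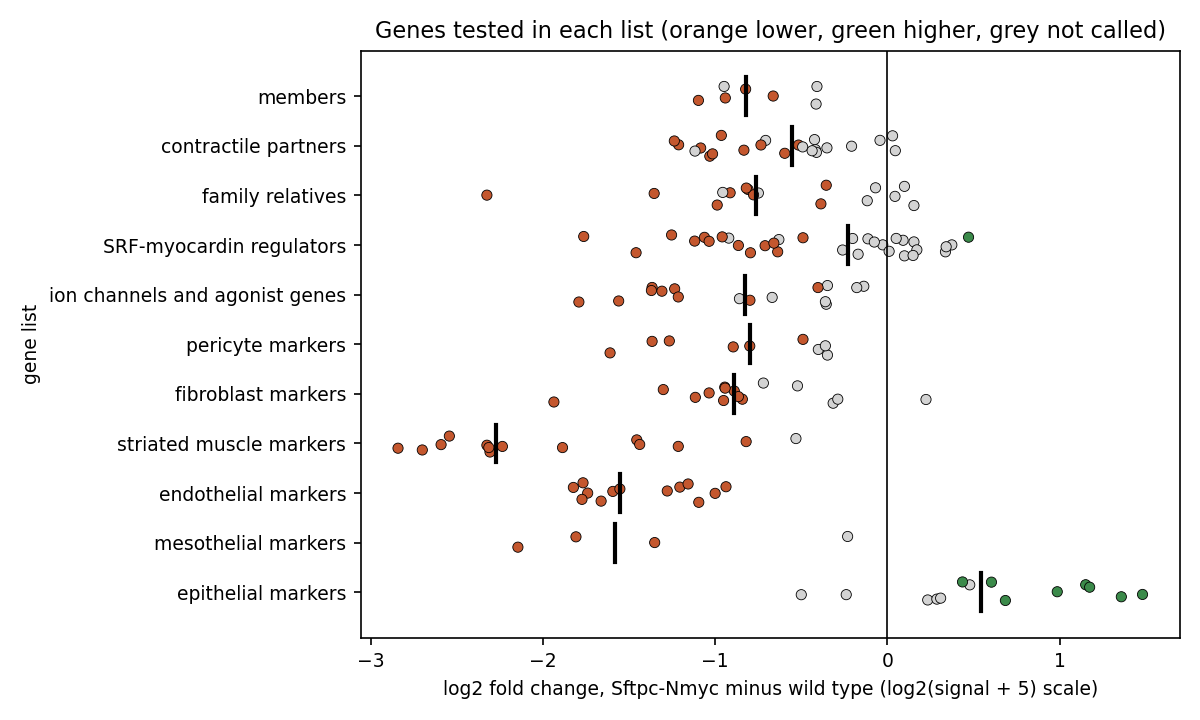
Log2 fold change of each tested gene in 11 lists, Sftpc-Nmyc minus wild type, with 1 point per gene (orange called lower, green called higher, grey not called) and a black bar at each list's median. The medians are -0.82 for the contractile genes, -0.23 for the SRF-myocardin regulators, -2.27 for striated muscle and 0.54 for epithelium.

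Markers of other cell types in the lung were measured beside the contractile genes. Over all genes tested, 15.7% were called lower and 14.7% higher. Pericyte markers were lower in 6 of 9 tested, and their summed normalized signal was 2638 and 2671 in wild type and 1439 and 1469 in the transgenic lungs. Fibroblast and myofibroblast markers were lower in 10 of 15, with sums of 30779 and 31933 against 16621 and 16133. Endothelial markers were lower in 13 of 13, with sums of 9059 and 10216 against 3625 and 3453, and mesothelial markers in 3 of 4, with sums of 2168 and 2586 against 1322 and 1120. The bright Krt7, which did not pass, made up much of the mesothelial sums, and without it they were 1141 and 1578 against 420 and 289. Gpm6a, 1 of the 3 mesothelial markers called lower, had a transgenic mean below the filter. It entered the test through the wild-type lungs alone. Striated muscle markers were lower in 13 of 14, with sums of 4743 and 3095 against 954 and 1200. For 6 of these 13 the transgenic mean lay below the filter, so they entered the test through the wild-type lungs alone, and the count is not independent of the filter. Epithelial markers mostly went the other way, with 8 of 14 higher and sums of 8528 and 9049 against 12260 and 12241. The other 6 did not pass, among them Prom1 and Krt19 with log2 changes of -0.50 and -0.24 (limma adjusted p = 0.053 and 0.16). The sums of the 10 contractile genes were 3994 and 3777 against 1943 and 2524, a ratio of the means of 0.575. Acta2 and Mylk made up most of these sums, with 1704.8 and 1185 in wild-type replicate 1. The ratio was 0.548 for pericyte, 0.522 for fibroblast, 0.367 for endothelial and 0.275 for striated muscle markers. The part of these cells in the change of the contractile genes was not tested. Several genes stand on more than 1 of these lists, among them Actc1, Kcnj8 and Notch3.

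After normalization, transgenic replicate 1 read below replicate 2 for 7 of 7 contractile genes tested, where 51.9% of all genes tested did. For Mylk the gap was 0.013 on the log2 scale, and its deposited signals, 477.2 and 475, stand the other way round. For Acta2 the transgenic lungs stood at 53.3% and 74.8% of the wild-type mean, for Tagln at 47.0% and 68.0%, for Actg2 at 38.6% and 69.5% and for Myh11 at 61.6% and 92.1%. Mylk and Smtn differed little between the same lungs, at 46.5% and 46.9% and at 51.2% and 53.0%. Replicate 1 was the lower for 10 of 14 tested striated muscle markers, 9 of 15 fibroblast markers, 5 of 9 pericyte markers, 7 of 22 contractile partners and 2 of 16 ion channel and agonist genes.

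**Figure D4:**
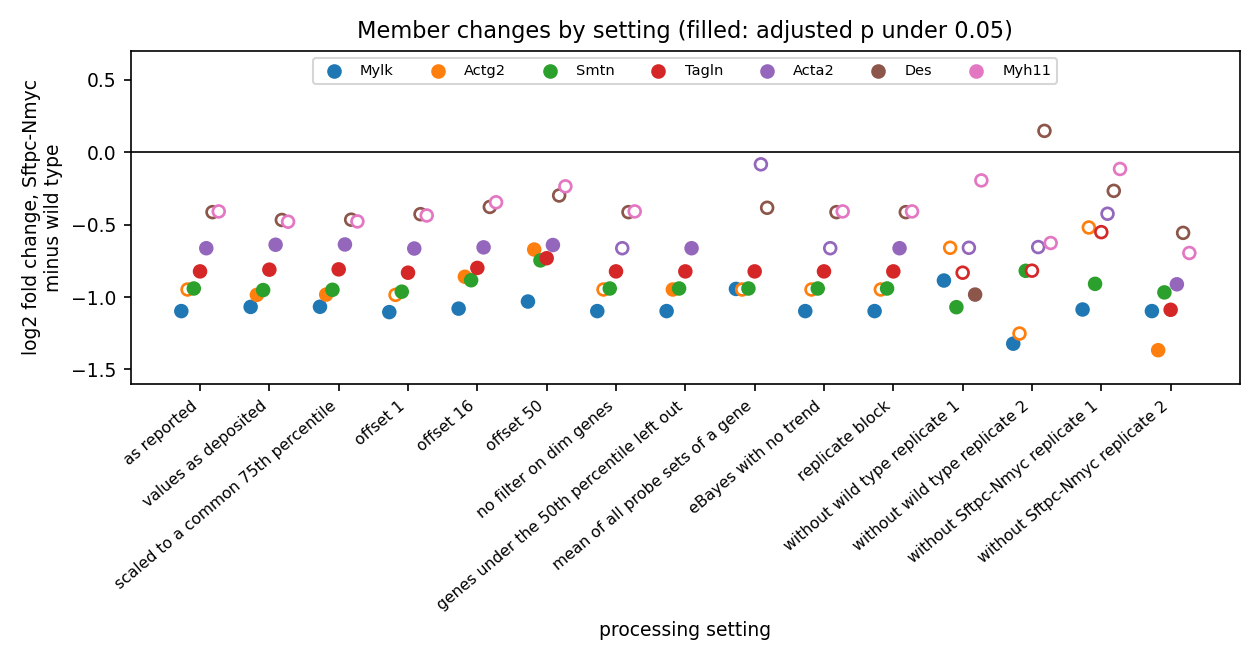
Log2 fold change of the 7 genes (vertical axis, 1 colour per gene) under the reported processing and 14 alternatives (horizontal axis), filled where the limma adjusted p was under 0.05. Mylk and Smtn are filled throughout. Acta2 and Tagln lose their call when either wild-type array or transgenic replicate 1 is left out. Acta2 also loses it with no filter on dim genes, with no variance trend and with averaged probe sets. Des crosses 0 without wild-type replicate 2.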

How the data were processed

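The authors deposited intensities, with 1 linear value for each probe set of each array. Per the labels, total RNA was isolated using the RNeasy kit and received biotin through the Affymetrix labelling kit. The summary software and scaling are not given in the sources at hand. Each array has a mean of 150.05 once the lowest 2% and the highest 2% of values are left out. Detection calls and scanner output were not analysed here. The platform annotation named the probe sets, and all 10 members matched by identifier to RefSeq symbols (GRCm38.p6).

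Values under 1 were set to 1, 5 was added, and log2 values were quantile normalized over 22626 non-control probe sets. The probe set with the highest mean stood for each gene, and genes below the 30th percentile of mean signal (37.2 in linear units) were left out. Group was the only term in limma 3.58.1 under R 4.3.3 (eBayes with trend); adjusted p-values are two-sided Benjamini-Hochberg values over all genes or all probe sets. Errors are limma standard errors unless marked SD. The number of arrays limits the precision. Data were simulated on 8675 genes, of which 200 were changed. There, 34 of 100 genes changed by 1 on the log2 scale and 81 of 100 changed by 2 were recovered. In the lungs 2636 genes were called, and the adjustment is stricter when fewer genes change. The simulated recovery is therefore not an estimate for the lungs. Members and lists were chosen with earlier results of these data known. All members are named, and from other lists those with the largest statistics, those going against their list, and a few preset ones.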

Additional observations from a re-analysis of the deposited data

How the results depend on the processing

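Of 7 contractile genes tested, 4 were called lower as reported, against 15.7% of all genes tested. Leaving out 1 array moved this count in both directions. Other settings that kept the same 7 called 3 to 5 lower, and 13.1% to 16.2% of all genes. The remaining settings changed the number tested. Averaged probe sets gave 3 of 6 (14.5% of all genes), and a cut raised to the 50th percentile gave 5 of 5 (19.6%). With no filter on dim genes, the count was 3 of all 10 contractile genes (8.42% of all genes). Their probe sets called lower numbered 5, with 3 under no filter on dim genes, 3 with no variance trend and 3 to 6 with 1 array left out. Contractile partners called lower ranged from 6 to 11 and SRF-myocardin regulators from 8 to 11 with 1 array left out, against 10 and 13. Over all genes 2636 were called, and 1375 to 1899 with 1 array left out. The log2 fold change of Des ran from -0.98 to 0.15 with 1 array left out, changing sign without wild-type replicate 2. With the replicate number as a block, 4 contractile genes and 2218 genes in all were called, and no call of a contractile gene changed; deviations of same-numbered lungs correlated at -0.043, so the numbers were not taken to pair them. Members called higher stayed at 0 under all alternatives. Where 1 array was left, it was assumed to vary like the other group. Signals under 73.4 on at least 1 array limit what can be said of Cnn1, Lmod1, Myocd, Myh11, Des and Actg2.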
